A study of Mus musculus with 9 samples.

Results

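The genes described here are 10 genes for cilia and flagella associated proteins (CFAP) that have been linked to defects of the sperm flagellum: Cfap20, Cfap43, Cfap44, Cfap47, Cfap57, Cfap58, Cfap61, Cfap70, Cfap206 and Cfap221. They were chosen by name, by a rule that uses no measured value, but with earlier results of these data known. All 10 were found among the 23074 genes of the count table and passed the filter on low counts. Cfap47 is listed in the annotation under the older name Gm7173. RNA-seq libraries had been made from the decapsulated testes of 9 mice, 1 library each, at an age of 29 to 30 days after birth. There were 5 wild type and 4 Rfx2-/- mice, all of a mixed C57BL/6, 129/Sv and FVB/N background. The Rfx2-/- mice lack exon 7 of Rfx2 in every tissue, since a floxed allele, targeted in embryonic stem cells, was recombined by crossing mice that carried it with a strain in which an actin promoter drives Cre. RFX2 and the transcription factors related to it bind X-box motifs in the promoters of many ciliary genes, and the comparison asked how the mRNAs of testis depend on it.

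The flagellum is built around the axoneme, a ring of microtubule doublets with a pair of single microtubules at its centre. Dynein arms on the doublets slide them against each other, and radial spokes and central pair projections control when and where they do so. The CFAP proteins are a mixed set of parts of this machine rather than a single family: CFAP20 joins the walls of each doublet at the inner junction, CFAP43 and CFAP44 form the tether of the inner arm dynein f, CFAP57 anchors other inner arms, CFAP61 and CFAP206 sit at the bases of radial spokes, CFAP70 has been placed at the base of the outer dynein arm, CFAP221 and CFAP47 belong to the central pair, and CFAP58 is a coiled-coil protein needed to assemble the flagellum. Loss of several of them in humans or mice gives sperm with short, coiled, bent or absent flagella, a condition named multiple morphological abnormalities of the flagella (MMAF). In testis the axoneme is assembled in spermatids after meiosis, although many of its mRNAs appear earlier.

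Because RFX proteins act through promoters, the sequences in front of the members were examined first. The RefSeq promoter table for GRCm38.p6, which gives 250 bases before and 50 bases after each start, held all 10 members. Each promoter was searched on both strands for the 6-base RFX site GTTGCC, and for the window nearest to the 14-base X-box palindrome made of GTTGCC, the bases AT and GGCAAC, so that a perfect palindrome also holds the 6-base site. Of the 32851 promoters in the table, 12.5% held the 6-base site. A window with at most 1 mismatch to the palindrome was found in 0.265% of promoters, one with at most 2 mismatches in 1.20%, with at most 3 in 3.37%, with at most 4 in 12.2% and with at most 5 in 48.0%. The limit on mismatches was relaxed after seeing the sequences.

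The promoters shown are those of the members with the nearest palindromes, Cfap44 and Cfap221, of the members with the largest differences between genotypes, Cfap70 and Cfap43, and of the most abundant member, Cfap206. They are written 5′ to 3′ along the gene, and capitals mark the window nearest to the palindrome.
Cfap44 promoter, chr16:44394549-44394848, plus strand: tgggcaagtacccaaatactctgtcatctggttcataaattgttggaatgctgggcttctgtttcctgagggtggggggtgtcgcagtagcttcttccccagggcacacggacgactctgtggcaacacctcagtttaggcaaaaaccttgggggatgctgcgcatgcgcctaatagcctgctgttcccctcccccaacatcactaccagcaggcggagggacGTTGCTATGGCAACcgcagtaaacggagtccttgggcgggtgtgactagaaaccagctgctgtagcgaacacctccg
Cfap221 promoter, chr1:119997183-119997482, minus strand: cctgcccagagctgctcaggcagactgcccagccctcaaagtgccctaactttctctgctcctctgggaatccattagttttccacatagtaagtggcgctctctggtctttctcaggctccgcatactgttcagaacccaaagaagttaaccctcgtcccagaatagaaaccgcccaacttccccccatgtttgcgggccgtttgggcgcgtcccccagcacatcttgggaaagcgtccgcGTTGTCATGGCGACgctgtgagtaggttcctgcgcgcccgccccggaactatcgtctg
Cfap70 promoter, chr14:20452176-20452475, minus strand: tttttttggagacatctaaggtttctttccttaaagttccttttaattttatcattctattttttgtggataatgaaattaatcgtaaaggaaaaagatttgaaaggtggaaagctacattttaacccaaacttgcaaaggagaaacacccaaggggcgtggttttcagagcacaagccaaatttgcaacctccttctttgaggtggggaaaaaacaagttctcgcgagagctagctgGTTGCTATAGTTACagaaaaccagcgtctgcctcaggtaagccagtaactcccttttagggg
Cfap43 promoter, chr19:47837312-47837611, minus strand: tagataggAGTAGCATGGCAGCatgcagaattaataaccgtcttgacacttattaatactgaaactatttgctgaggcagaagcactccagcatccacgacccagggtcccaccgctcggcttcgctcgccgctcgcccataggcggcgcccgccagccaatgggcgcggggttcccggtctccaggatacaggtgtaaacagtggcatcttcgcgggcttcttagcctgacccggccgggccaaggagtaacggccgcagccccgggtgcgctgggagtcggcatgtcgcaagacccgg
Cfap206 promoter, chr4:34730157-34730456, minus strand: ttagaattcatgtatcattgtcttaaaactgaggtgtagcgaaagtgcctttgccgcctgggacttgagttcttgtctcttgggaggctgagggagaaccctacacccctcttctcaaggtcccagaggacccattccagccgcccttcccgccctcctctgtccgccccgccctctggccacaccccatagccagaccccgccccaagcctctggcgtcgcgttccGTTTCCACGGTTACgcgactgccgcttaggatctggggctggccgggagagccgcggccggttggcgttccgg

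The Cfap44 window lay 27 to 14 bases before the start and had 1 mismatch. It holds a 6-base site on the other strand, and a further one began at position -129. The Cfap221 window spanned the start, from -8 to 6, with 2 mismatches. The windows of Cfap70, from -12 to 2, and Cfap206, from -23 to -10, each had 4 mismatches. The nearest window of Cfap43 had 5, as near as 48.0% of all promoters, and lay far upstream. Its RefSeq start lies inside the longer gene span of the annotation used here for gene positions. Among the members not shown whole, 4 had windows of 3 or 4 mismatches, and their sequences were
Cfap57, 3 mismatches, -3 to 11: GTTGCTATAGGAAC
Cfap61, 3 mismatches, -8 to 6: GTTTCCTTAGCAAC
Cfap20, 3 mismatches, -207 to -194: GTTCCCATGACACC
Cfap58, 4 mismatches, -59 to -46: GTTGCCAGGCGACC
The Cfap58 window began with a whole 6-base site, and Cfap20 had such a site at position -94. Cfap47 had no window with fewer than 6 mismatches, whereas 48.0% of promoters have at most 5. A match of letters is a description and not a binding site. The member with the nearest palindrome, Cfap44, and the member with the largest fall in mRNA, Cfap70, were different genes. The study also lists genes with an RFX2 peak in their promoter, from ChIP-seq of wild type germ cells 21 days after birth. That list holds 8 members, Cfap70, Cfap43 and Cfap44 among them, but not Cfap206 or Cfap47. The share of all genes on the list was not computed, and the relation of the peaks to the changes in mRNA was not tested.

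Values are given as CPM, a read count scaled for the depth and, through TMM factors, the composition of its library. Depth ranged from 13574764 to 15193330 counts, except for Rfx2-/- replicate 1 with 28800855, so that 3 counts, the upper limit allowed by a count of 0, corresponded to 0.0995 CPM in that library and to 0.196 to 0.234 CPM in the others. Rfx2 itself had 470.9 to 623.8 CPM in wild type testes and 199.2, 61.51, 151.1 and 172.7 CPM in Rfx2-/- testes (log2 fold change -1.91, SE 0.28, edgeR adjusted p 7.81e-04). The counts do not separate exons, so reads from the exons that remain are included. Rfx2-/- replicate 2 stood apart from the other knockout libraries by transcript length: its median deviation on the log2 scale was 0.57 where exons summed to less than 2 kb and -0.88 where they exceeded 8 kb. The biological coefficient of variation was 0.134 among wild type libraries, 0.299 among Rfx2-/- libraries and 0.179 among them without replicate 2, and values without it are given beside those it touches. Scaling by total counts in place of TMM moved the median log2 fold change of all genes from 0.03 to 0.16 and the calls from 575 lower and 129 higher to 483 lower and 191 higher.

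Of the 10 members, 2 were lower in Rfx2-/- testes at an adjusted p of 0.01 and more than 2-fold, Cfap70 and Cfap43, against 3.68% of the 15613 genes tested. None was higher by these limits, against 0.826% of all genes. With the adjusted p at 0.05 and no fold limit, Cfap61 was also lower, which made 3 members against 7.31% of all genes, and again no member was higher, against 3.48%. No member was higher at an unadjusted p of 0.05 in edgeR either, and DESeq2 and limma voom with quality weights also gave 0 at the adjusted limit. The log2 fold change was below 0 in 6 of 10 members and in 7316 of the 15613 genes, with medians of -0.33 and 0.03. The ranges of the genotypes did not overlap in 4 members, all lower in Rfx2-/- testes, against 9.70% of all genes in that direction, and in 0 members higher, against 6.16%.

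Without Rfx2-/- replicate 2, an alternative chosen with that library's behaviour known, the counts of members changed as follows. The stricter limits again gave Cfap70 and Cfap43 as lower and no member as higher, against 4.01% and 1.04% of 15745 genes. At an adjusted p of 0.05 there were 4 lower members, with Cfap57 added, against 9.77%, and 1 higher member, Cfap44, against 4.93%. The same 4 members lay wholly below the wild type range, against 11.6% of all genes, and Cfap44 lay wholly above it, against 8.65%.

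**Figure D1:**
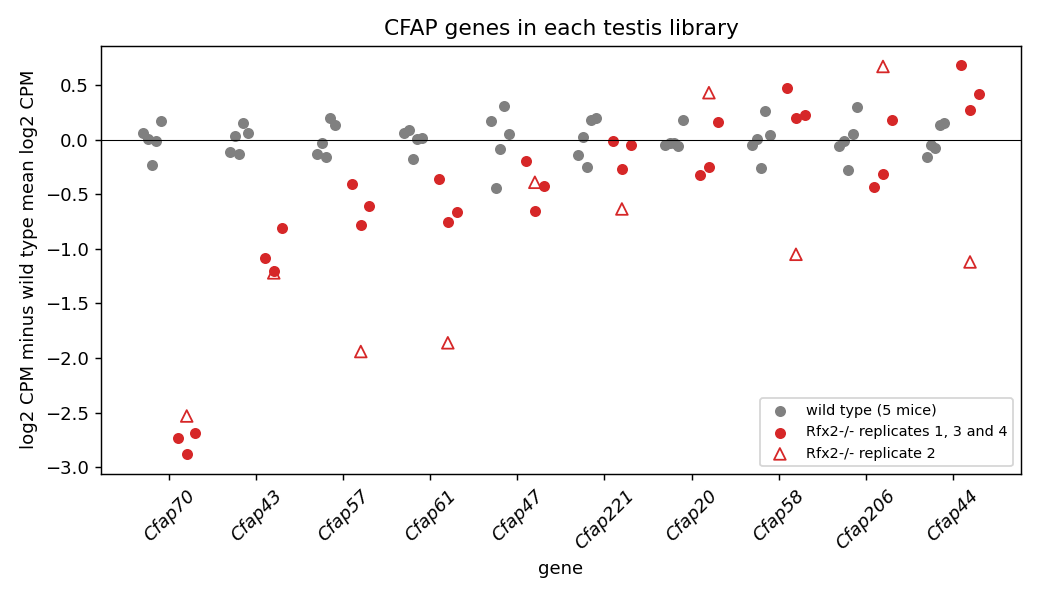
Log2 CPM of each CFAP gene in each of the 9 libraries, minus the wild type mean of that gene. Grey points are wild type mice, red points are Rfx2-/- replicates 1, 3 and 4, and open triangles are Rfx2-/- replicate 2. All 4 knockout libraries lie below every wild type library for Cfap70, Cfap43, Cfap57 and Cfap61. The triangle lies far below the other knockout libraries for Cfap44, Cfap57, Cfap58 and Cfap61, and above them for Cfap206.

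Cfap70 (ENSMUSG00000039543, GRCm38 chromosome 14, 20394193 to 20452226, minus strand) showed the largest difference of the set. It encodes a tetratricopeptide repeat protein of the axoneme. Wild type replicates 1 to 5 had 294.5, 283.7, 239.6, 280.1 and 317.5 CPM, and Rfx2-/- replicates 1 to 4 had 42.44, 48.88, 38.17 and 43.77 CPM. The groups were far apart, and the 4 knockout libraries lay within 11 CPM of each other, replicate 2 included. The mean fell from 283.1 ± 28.3 CPM (SD, n = 5) to 43.3 ± 4.41 CPM (SD, n = 4), or 15.3% of wild type. The log2 fold change was -2.71 (SE 0.15, 95% confidence interval -3.03 to -2.39, edgeR adjusted p 1.40e-07). Over all 16 alternative settings it stayed between -2.80 and -2.57.

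Cfap43 and Cfap44 encode partners, WD repeat proteins that together form the tether of dynein f, and their mRNAs behaved differently. Cfap43 (ENSMUSG00000044948, chromosome 19, 47736857 to 47919287, minus strand) had 392.7, 435.0, 389.2, 474.2 and 442.3 CPM in wild type and 201.4, 182.3, 184.8 and 242.7 CPM in Rfx2-/- testes. The lowest wild type library was well above the highest knockout library. Its mean fell from 426.7 ± 35.8 (SD, n = 5) to 202.8 ± 27.9 CPM (SD, n = 4), 47.5% of wild type, with a log2 fold change of -1.07 (SE 0.14, interval -1.38 to -0.76, edgeR adjusted p 3.40e-04). The fall passed an adjusted p of 0.05 in all 16 alternatives, but its size lay at the 2-fold limit: scaling by total counts gave a log2 fold change of -0.94, omission of Rfx2-/- replicate 3 gave -0.996, and a test against the limit itself did not call it.

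Cfap44 (ENSMUSG00000071550, chromosome 16, 44394796 to 44482428, plus strand) had 153.6, 165.9, 163.3, 188.6 and 191.1 CPM in wild type and 275.2, 79.1, 207.6 and 229.0 CPM in Rfx2-/- testes. Replicates 1, 3 and 4 of the knockout lay above every wild type library, and replicate 2 lay below every one of them. With all libraries the log2 fold change was 0.20 (SE 0.28, interval -0.40 to 0.80, edgeR adjusted p 0.670). Without replicate 2 it was 0.46 (SE 0.12, edgeR adjusted p 0.0201), from 172.5 ± 16.5 CPM (SD, n = 5) to 237.3 ± 34.5 CPM (SD, n = 3), and this was the only 1 of 16 alternatives in which it passed 0.05. The adjusted p ranged from 0.0201 to 0.958 over them.

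The number of Cfap44 counts per Cfap43 count needs no scaling between libraries, and was computed after the values of both genes had been seen, so no test is given. It was 0.391, 0.381, 0.420, 0.398 and 0.432 in wild type replicates 1 to 5. In Rfx2-/- replicates 1 to 4 it was 1.37, 0.434, 1.12 and 0.944. The ratio was thus narrow among wild type mice, with a mean of 0.404 ± 0.0209 (SD, n = 5), and higher and more spread in knockout mice, with a mean of 0.967 ± 0.395 (SD, n = 4). Rfx2-/- replicate 2 was next to the highest wild type library.

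Cfap57 encodes a WD repeat protein that anchors inner dynein arms, and Cfap61 a protein of the calmodulin and spoke associated complex at the base of a radial spoke. Cfap57 (ENSMUSG00000028730, chromosome 4, 118554551 to 118620777, minus strand) had 278.4, 299.2, 274.3, 350.0 and 335.4 CPM in wild type and 230.7, 79.97, 178.5 and 201.4 CPM in Rfx2-/- testes. Cfap61 (ENSMUSG00000037143, chromosome 2, 145934784 to 146215039, plus strand) had 96.95, 98.96, 82.31, 93.5 and 94.11 CPM in wild type and 72.5, 25.61, 54.93 and 58.68 CPM in Rfx2-/- testes. Neither gene showed overlap between genotypes, and in both Rfx2-/- replicate 2 was the lowest library by far.

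The Cfap57 log2 fold change was -0.83 (SE 0.25, interval -1.38 to -0.28), which missed the limit of 0.05 (edgeR adjusted p 0.0563). Without Rfx2-/- replicate 2 it was smaller but more precise, -0.59 (edgeR adjusted p 0.00588), and it passed 0.05 in 5 of 16 alternatives, DESeq2 among them (adjusted p 0.0134). Cfap61 fell narrowly by the same measure, with a log2 fold change of -0.81 (SE 0.24, interval -1.33 to -0.30, edgeR adjusted p 0.0481). Without Rfx2-/- replicate 2 the Cfap61 value was -0.58 (edgeR adjusted p 0.00360). Cfap61 no longer passed 0.05 in 9 of 16 alternatives, where the edgeR adjusted p reached 0.105. Cfap61 overlaps Crnkl1 on the opposite strand by 57 exon bases, and reads in such overlaps were left out by the authors.

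Cfap58, Cfap206, Cfap20, Cfap221 and Cfap47 did not pass the test, with or without Rfx2-/- replicate 2. Cfap58 (ENSMUSG00000046585, chromosome 19, 47937675 to 48035387, plus strand) had 153.1 to 220.0 CPM in wild type, median 183.6, and 254.4, 88.26, 209.3 and 213.7 CPM in Rfx2-/- testes. As for Cfap44, knockout replicate 2 was below the wild type range and the others were in its upper part or above it. The log2 fold change was 0.05 (SE 0.25, interval -0.49 to 0.60, edgeR adjusted p 0.908) and 0.29 without replicate 2 (edgeR adjusted p 0.147). On chromosome 19 the annotated span of Cfap43 ends before Cfap58, and the genes are read in opposite directions. That span also overlaps Gsto1, Gsto2 and Itprip, and the RefSeq start of Cfap43 lies inside it, farther from Cfap58. The fitted values were 0.05 for Cfap58 and -1.07 for Cfap43.

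Cfap206 (ENSMUSG00000028294, chromosome 4, 34688559 to 34730206, minus strand), whose protein docks radial spoke 2 and dynein c, was the most abundant member. It had 748.5, 770.9, 639.0, 806.4 and 955.9 CPM in wild type and 576.5, 1236, 624.8 and 878.4 CPM in Rfx2-/- testes, so that replicate 2 was here the highest of the 9 libraries. Its log2 fold change was 0.08 (SE 0.22, interval -0.41 to 0.57, edgeR adjusted p 0.842) and -0.18 without that library. Cfap20 (ENSMUSG00000031796, chromosome 8, 95420249 to 95434869, minus strand), for the conserved inner junction protein, behaved alike, with 90.61, 91.99, 91.95, 90.04 and 106.1 CPM in wild type and 75.15, 126.5, 79.13 and 104.8 CPM in Rfx2-/- testes. The wild type libraries of Cfap20 were close together and fell inside the range of the knockout libraries. Its log2 fold change was 0.03 (SE 0.17, interval -0.33 to 0.39, edgeR adjusted p 0.914) and -0.12 without replicate 2. The intervals of both genes exclude a 2-fold change in either direction, but not smaller ones.

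The remaining members belong to the central pair. Cfap221 (ENSMUSG00000036962, chromosome 1, 119923341 to 119997234, minus strand), a part of its C1d projection, had 34.18 to 46.55 CPM in wild type, median 41.27, and 40.35, 26.21, 33.8 and 39.25 CPM in Rfx2-/- testes, with overlap. The log2 fold change was -0.23 (SE 0.16, interval -0.58 to 0.12, edgeR adjusted p 0.369). Cfap47 (ENSMUSG00000073077, chromosome X, 79266559 to 79517285, minus strand) was the least abundant member, with 54 to 152 counts per library. It had 4.259 to 7.153 CPM in wild type, median 6.004, and 5.048, 4.413, 3.68 and 4.318 CPM in Rfx2-/- testes, and the lowest wild type library lay among the knockout libraries. Its log2 fold change was -0.42 (SE 0.19, interval -0.83 to -0.01), with an edgeR adjusted p of 0.172.

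**Figure D2:**
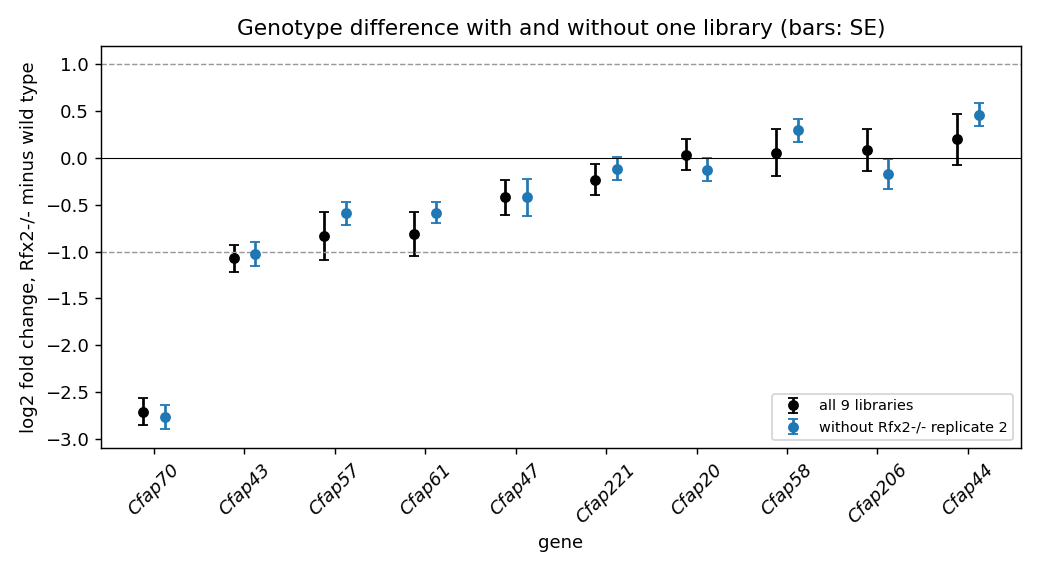
Log2 fold change (Rfx2-/- minus wild type) of each CFAP gene from edgeR, with all 9 libraries (black) and without Rfx2-/- replicate 2 (blue). Bars are standard errors and dashed lines mark 2-fold; Cfap70 is near -2.7 either way, whereas the errors of Cfap44, Cfap57, Cfap58 and Cfap61 shrink and Cfap20 and Cfap206 move from above to below 0 without that library.

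The distance of Rfx2-/- replicate 2 from the other knockout libraries differed among members. On the log2 CPM scale it was -1.58 for Cfap44, -1.35 for Cfap58, -1.34 for Cfap57, -1.27 for Cfap61 and -0.52 for Cfap221, and it was 0.86 for Cfap206, 0.57 for Cfap20 and 0.24 for Cfap70. It was small for Cfap43, -0.19, and for Cfap47, 0.03. Exon length did not order these values. Cfap61 and Cfap47, with 9.94 and 9.53 kb of merged exons, differed by more than 1 unit, and Cfap58, with 3.50 kb, lay as low as genes of greater length. Removal of a smooth trend on exon length from each library gave an edgeR adjusted p of 0.0205 for Cfap57 and 0.00497 for Cfap61, and 0.699 for Cfap44. What set this library apart was not tested.

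**Figure D3:**
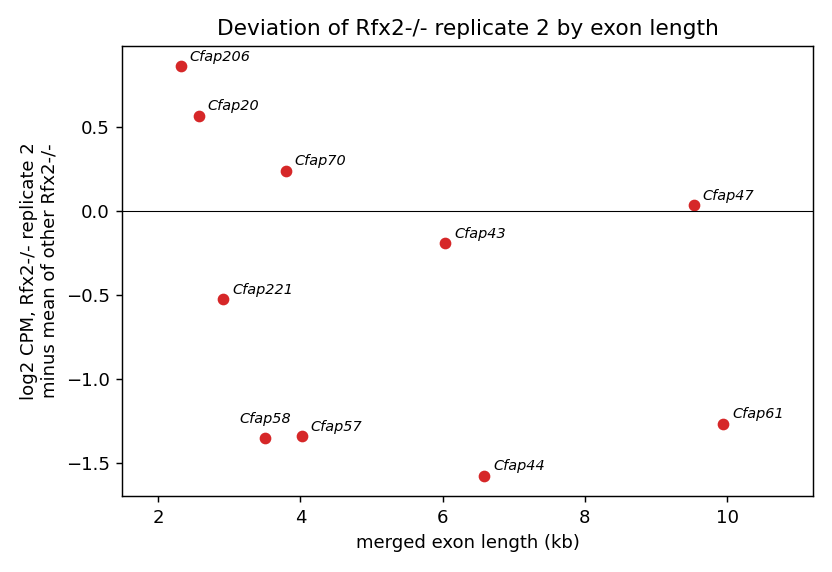
Log2 CPM of Rfx2-/- replicate 2 minus the mean of the other 3 knockout libraries (vertical axis) against the merged exon length in kb (horizontal axis), with 1 point for each CFAP gene. Cfap206 lies highest at 0.86 and Cfap44 lowest at -1.58. Cfap58, at 3.50 kb, and Cfap221, at 2.92 kb, lie below 0, and Cfap47, at 9.53 kb, lies near 0.

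Levels can be compared between genes only per length, and were therefore divided by the kb of merged exons, a scale on which wild type values spanned from 338.6 ± 49.5 CPM per kb for Cfap206 to 0.616 ± 0.115 CPM per kb for Cfap47 (SD, n = 5). Cfap206 stood above 99.4% of the genes tested in wild type testes, and Cfap47 above 10.9%. Cfap57 (76.5 ± 8.44), Cfap70 (74.6 ± 7.47) and Cfap43 (70.7 ± 5.93 CPM per kb) followed Cfap206 and did not differ beyond their spread. Below them came Cfap58 (52.7 ± 6.89), Cfap20 (36.6 ± 2.62), Cfap44 (26.2 ± 2.51), Cfap221 (14.1 ± 1.90) and Cfap61 (9.37 ± 0.65 CPM per kb), each separated from the next by more than the larger SD of the pair.

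In Rfx2-/- testes Cfap206 again stood first at 357.9 ± 130.4 CPM per kb (SD, n = 4), and Cfap47 last at 0.458 ± 0.0587 CPM per kb. Cfap70 had 11.4 ± 1.16 CPM per kb, close to Cfap221 at 11.97 ± 2.22, whereas in wild type testes it was beside Cfap57. The values of Cfap58 (54.7 ± 20.5), Cfap57 (42.9 ± 16.3), Cfap20 (37.5 ± 9.33), Cfap43 (33.6 ± 4.63) and Cfap44 (30.0 ± 12.8 CPM per kb) lay within the spread of their neighbours in the order. Exon lengths come from a later annotation than the one used for counting.

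**Figure D4:**
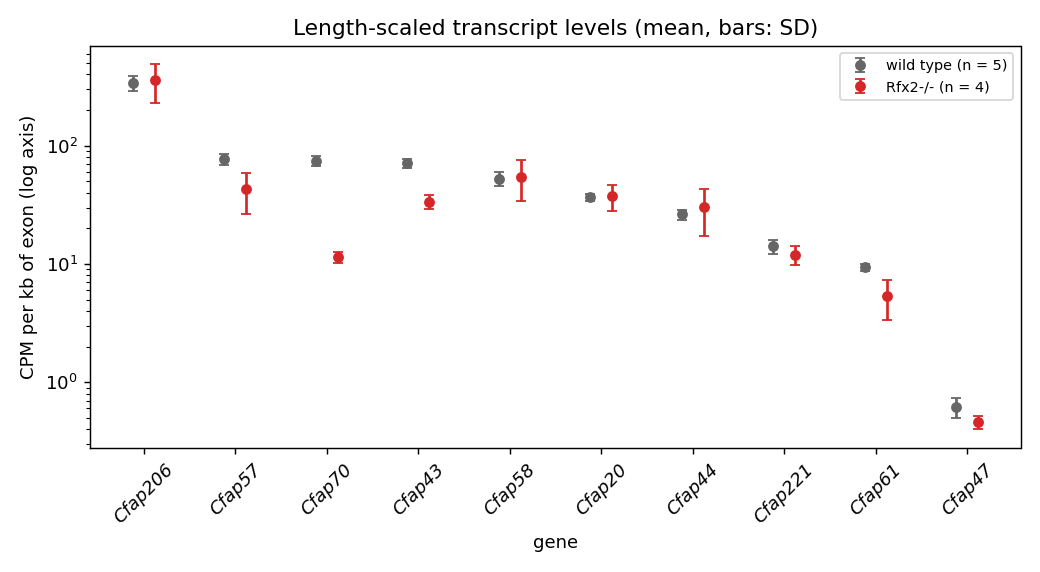
Mean CPM per kb of merged exons on a log axis for each CFAP gene in wild type (grey, n = 5) and Rfx2-/- testes (red, n = 4), with SD as bars. Genes are ordered by wild type level, from Cfap206 at 338.6 to Cfap47 at 0.616, and Cfap70 drops from the level of Cfap57 to that of Cfap221.

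The structures to which the members belong were then described through 39 other genes in 7 lists. In all, 12 of the 39 were called lower and 0 higher, and at an adjusted p of 0.05 15 were lower and 1 higher. The median log2 fold change was -0.64, with 35 of 39 below 0, or 31 of 39 with total counts. Without Rfx2-/- replicate 2 the counts were 18 lower and 2 higher at 0.05, and the median was -0.39. These counts are to be read against the shares of all genes given above.

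In the calmodulin and spoke associated complex, the partners of Cfap61 diverged. Cfap91, which links the spoke bases, fell from 89.6 ± 13.6 (SD, n = 5) to 10.98 ± 2.08 CPM (SD, n = 4), with a log2 fold change of -3.02 (edgeR adjusted p 2.91e-07). Cfap251, a WD repeat protein of the same complex, rose from 154.0 ± 8.15 to 286.3 ± 99.96 CPM (log2 fold change 0.90, edgeR adjusted p 0.0200). Its lowest knockout library, at 154.2 CPM, lay within the wild type range, and without that library, Rfx2-/- replicate 2, the log2 fold change was 1.10. It was the only gene of the lists that rose in edgeR with all libraries. None of the 4 dynein heavy chains listed with Cfap206 at the radial spoke base passed, in edgeR (0 also at an unadjusted p of 0.05), DESeq2 or voom.

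In the tether and inner arm f list, Dnah10, a heavy chain of that arm, fell from 285.2 ± 25.6 to 16.4 ± 10.7 CPM (log2 fold change -4.11, edgeR adjusted p 3.21e-05), and its intermediate chain Dnai4 had a log2 fold change of -1.49 (edgeR adjusted p 0.00160). Dnah2, the other heavy chain, had -0.72 (edgeR adjusted p 0.259), and Dnai3, Cfap73 and Cfap100 did not pass. The dynein arm whose tether holds Cfap43 and Cfap44 thus had both called and uncalled mRNAs. Among 5 genes of the C1d projection and its neighbours listed with Cfap221 and Cfap47, 3 fell: Cfap46 (-3.34, edgeR adjusted p 8.25e-05), Spag17 (-2.52, edgeR adjusted p 2.85e-04) and Cfap54 (-1.24, edgeR adjusted p 0.00958). Cfap74 and Hydin had -0.64 and -0.85 and did not pass. Without Rfx2-/- replicate 2 Cfap54 was under 2-fold, at -0.98, and Hydin fell, at -0.52 (edgeR adjusted p 0.0396).

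Around Cfap20 at the inner junction, the microtubule inner proteins Tektl1 (-2.60, edgeR adjusted p 5.72e-07), Enkur (-0.88, edgeR adjusted p 0.00570) and Ccdc81 (-0.71, edgeR adjusted p 0.0115) fell. Of the outer arm chains listed with Cfap70, Dnai2 fell from 113.2 ± 18.3 to 1.04 ± 0.299 CPM (log2 fold change -6.73, edgeR adjusted p 5.28e-09), the largest fall in the lists. The other 4 chains, Dnah5, Dnah8, Dnah17 and Dnai1, did not pass with all libraries, with values from -0.86 to 0.41. With Rfx2-/- replicate 2 left out, Dnai1 rose, at 0.63 (edgeR adjusted p 0.00110), and Dnah8 fell, at -0.53 (edgeR adjusted p 0.0202).

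Of 12 further genes linked to MMAF, 5 fell in edgeR, against 7.31% of all genes, and 6 in DESeq2 and in voom. None rose in any of them, with 0 higher also at an unadjusted p of 0.05 in edgeR. Spef2, a central pair protein, had a log2 fold change of -5.03 (edgeR adjusted p 1.39e-08), and Armc2 had -2.68 (edgeR adjusted p 8.98e-06). Ttc29 had -1.64 (edgeR adjusted p 9.40e-06), Dzip1 had -1.06 (edgeR adjusted p 0.00884) and Ttc21a had -0.80 (edgeR adjusted p 0.0387). The other 7 genes of this list, Dnah1, Qrich2, Fsip2, Cep135, Ak7, Cfap65 and Cfap69, did not pass with all libraries. In the fit without Rfx2-/- replicate 2 Dnah1 fell, at -0.64 (edgeR adjusted p 0.00488), and Dzip1 was under 2-fold, at -0.86.

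**Figure D5:**
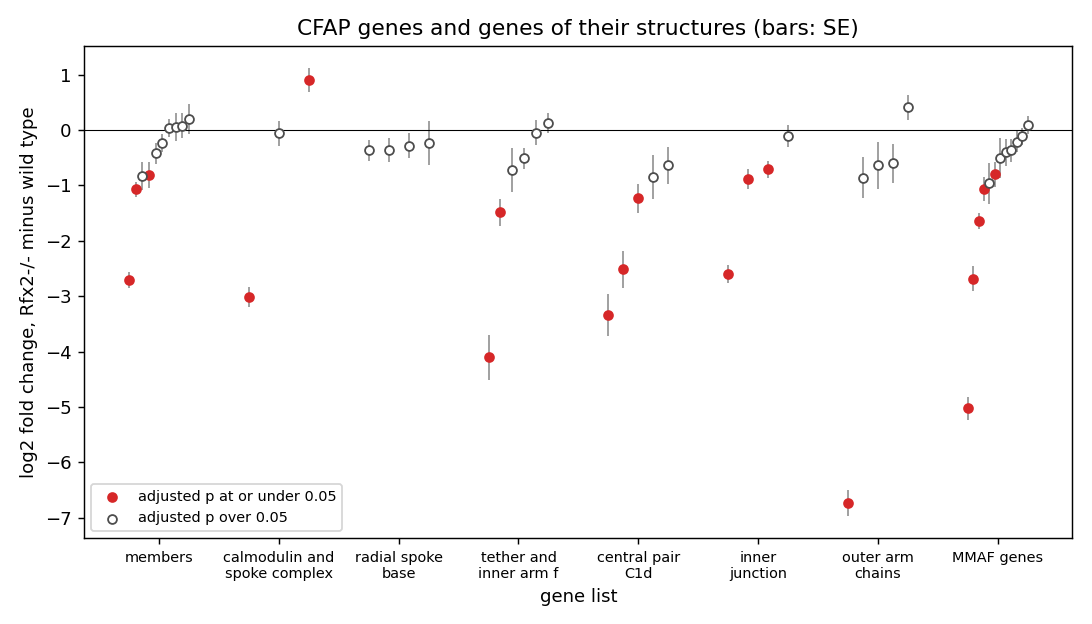
Log2 fold change (Rfx2-/- minus wild type) with SE bars for the 10 CFAP genes (left) and for the genes listed with them, by structure. Red points have an edgeR adjusted p at or under 0.05; Cfap251, at 0.90, is the only red point above 0, and Dnai2, at -6.73, is the lowest.

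The other genes with a Cfap symbol in the table numbered 19, of which 7 also appear in the lists above. Of these 19, 8 were called lower and 0 higher, against 3.68% and 0.826% of all genes tested. At an adjusted p of 0.05, 10 were lower, against 7.31% of all genes, and the median log2 fold change was -0.78. None was higher at 0.05 in edgeR, DESeq2 or voom, although 2 were at an unadjusted p of 0.05 in edgeR and 2 at the adjusted limit with total counts. The lowest 3 were Cfap157 (-5.45, SE 0.23, edgeR adjusted p 1.56e-08), a basal body protein, Cfap161 (-5.28, SE 0.21, edgeR adjusted p 1.39e-08) and Cfap53 (-4.66, SE 0.28, edgeR adjusted p 2.91e-07), both inner proteins of the doublets. Each had under 5 CPM on average in Rfx2-/- testes, from 83.9 ± 11.4, 94.8 ± 13.6 and 121.0 ± 14.04 CPM in wild type (SD, n = 5), so that Cfap70, the member with the largest fall, kept a higher share of its wild type level than these.

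For the members with the lowest and highest fold change, the genes with the most similar pattern over the 9 libraries were sought among 12829 genes. The measure was the root mean square difference of log2 CPM, with 0.5 CPM added to each value, after subtraction of the wild type mean. Nearest to Cfap70 were Cdk20, at 0.0821, 1700012B09Rik, at 0.139, and Me3, at 0.181. Cdk20 encodes a cyclin-dependent kinase and Me3 a mitochondrial malic enzyme, and their log2 fold changes were -2.84 and -3.47. Me3 averaged only 0.760 CPM in Rfx2-/- testes, so the added 0.5 CPM made its fall smaller on this scale and its place in the ranking depends on it. Nearest to Cfap44 were Bnc2, at 0.117, Cfap58, at 0.136, and Thsd7a, at 0.142, so that a second member was among the genes most like it. In both members Rfx2-/- replicate 2 lay furthest from the wild type mean, at -1.12 for Cfap44 and -1.05 for Cfap58. Their likeness therefore rests in large part on that library, and it was not computed without it.

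Whole testis holds many cell types, and in such samples fewer cells of a type and less RNA per cell cannot be told apart. The summed level of 7 round spermatid markers was 1000 to 1527 CPM in wild type and 1146 to 1567 CPM in Rfx2-/- testes, and 0 of the 7 passed an adjusted p of 0.05 in edgeR. The 7 pachytene markers summed to 5854 to 6978 and 5948 to 8860 CPM, with 0 of 7 past it and a median log2 fold change of 0.64. Of 12 elongating spermatid markers 5 fell, against 7.31% of all genes, with a median log2 fold change of -0.76. Their sum was 8998 to 19000 CPM in wild type, lowest in replicate 3, and 7164 to 11780 CPM in Rfx2-/- testes. The part of this difference in the fall of Cfap70, Cfap43 and Cfap61 was not tested. Among spermatogonia, Sertoli and Leydig markers 1 Sertoli gene rose and the others did not pass.

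The members are also expressed in multiciliated epithelia, such as that of the ducts beside the testis. Of 7 markers of multiciliated cells, Mcidas, Gmnc, Tmem212 and Sntn were at 0 to 0.545 CPM in every library. The summed level of the list was 284.4 to 428.3 CPM in wild type and 211.9 to 254.3 CPM in Rfx2-/- testes, carried by Deup1 and Foxj1. Of the 3 markers tested 2 fell, against 7.31% of all genes. In which cells Deup1 and Foxj1 were expressed was not tested, so the sum is not a measure of multiciliated cells.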

How the data were processed

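RNA was extracted by the authors from decapsulated testes on silica columns and made into TruSeq libraries. For 23074 genes the deposited file gives unnormalised counts of reads. Per the study's methods, reads were mapped to GRCm38 (Ensembl models), reads with several positions were discarded, and reads were counted over the merged exons of each gene's protein coding isoforms, leaving out those in exons of different genes. The submitters' processing notes name CASAVA 1.8.2, STAR 2.4 and featureCounts 1.4.6. Read length and aligner are given differently in parts of the methods, and use of strand is not given in the sources used here. Transcripts that share sequence can thus lose reads, which touched Cfap61 alone among the members (0.217% of its 50-base words).

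Groups came from the genotype label of each mouse. Replicate numbers were given in accession order, so they tie no mice together. Any 2 libraries of a genotype differed by more than sampling noise (chi-square of 4.32 per gene or more). Names, positions and exon lengths came from GENCODE M21, which held 96.6% of the gene IDs, and promoters from RefSeq. Genotypes were compared in R 4.3.3 with edgeR 4.0.16 (quasi-likelihood F test, TMM, filterByExpr, robust), with Benjamini-Hochberg adjustment over 15613 genes. A gene was called at an adjusted p of 0.01 and over 2-fold, and was said to rise or fall at an adjusted p of 0.05. The study, which used DESeq, gives the same fold and p limits without saying whether its p was adjusted. Confidence intervals are at 95% and cover the spread between mice. Limits from counts cover counting error only. DESeq2 1.42.0, limma 3.58.1 (voom), other scalings, no count filter, removal of a length trend, thinning of the deepest library and omission of each library were alternatives. The procedure was tested on simulated data.

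The members and lists were chosen with earlier results of these data known, so their counts beside the shares of all genes are descriptions only. The text names all members, Rfx2, every listed gene past an adjusted p of 0.05, the 3 lowest other Cfap genes, and the 3 genes nearest in pattern to Cfap70 and to Cfap44 (mean of at least 50 counts, pseudocount 0.5 CPM). Other listed genes that did not pass were named beside the counts after their values were seen, and the result of 1 listed gene is not reported here.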

Additional observations from a re-analysis of the deposited data

Results flagged for a closer look

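Cfap20 in wild type replicate 5 stood apart from the rest of its group, at 106.1 CPM against 90.04 to 91.99 CPM in the other 4 wild type mice. The gap was 0.878 of the whole range of the group. The 10 members were examined in both genotypes, 20 groups in all, of which about 1 in 20 would be picked out by chance, and this was the only group found. Cfap20 did not pass the test between genotypes with or without that library.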

How the results depend on the processing

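No paired analysis was possible because the labels give no replicate numbers shared between genotypes. Each member was recomputed under 16 alternatives. Cfap70 and Cfap43 passed an adjusted p of 0.05 in all of them, and Cfap221, Cfap47, Cfap20, Cfap206 and Cfap58 in none. The number of members called lower, 2, was 1 with total counts, 1 in the test against the 2-fold threshold, and 1 to 2 with each library left out, 1 without Rfx2-/- replicate 3, as Cfap43 then changed less than 2-fold. The number higher at 0.05 was 0 to 1 with each library left out, Cfap44 being higher without Rfx2-/- replicate 2. Without that library 2 genes of the structure lists were higher, and with total counts 2 other Cfap genes were. Signs turned for Cfap20 (-0.11 with voom, -0.14 without the length trend, -0.12 to 0.17 with each library left out), Cfap206 (-0.18, -0.14, and -0.18 to 0.25) and Cfap58 (-0.070 without the length trend, -0.083 to 0.29 with each library left out), none of which passed the test. The causes were not tested. Cfap61 no longer passed an adjusted p of 0.05 in 9 alternatives, and Cfap57, which missed it in the main fit, passed it in 5. Depth limited Cfap47 most, at 54 to 152 counts a library.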
